A study of Mus musculus with 2 samples.

Results

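The genes described here encode the respiratory chain and the ATP synthase of the mitochondrion from the nuclear genome. Members were chosen by name, without use of any measured value: probe sets whose platform annotation gives a single symbol that starts with Nduf, Uqcr or Atp5, is a Cox4 to Cox8 gene, or is Sdha, Sdhb, Sdhc, Sdhd or Cyc1. The rule took 180 probe sets of 91 genes, of 18193 genes named on the array. By current knowledge of the complexes they were 34 subunits of complex I, 8 complex I assembly factors (Ndufaf genes), 4 subunits of complex II, 9 of complex III, 17 of complex IV and 17 of complex V. The remaining 2, Cox7a2l, an assembly factor of respiratory supercomplexes, and Ndufa4l2, a paralogue of Ndufa4, were kept apart. Ndufa4 was first described in complex I and was counted in complex IV, where it is now placed.

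Messenger RNA was measured on Affymetrix 3' expression arrays in mouse E14 cells, an established embryonic stem cell line. In the first group, cells received a lentiviral short hairpin RNA (shRNA) directed at Mll2, and in the other a lentiviral control shRNA. Infection lasted 24 h and puromycin selection 5 days, so that both groups were infected, drug-selected populations. With 1 array per group, and with neither the hairpin sequences nor the number of cultures given in the sources used here, the differences could not be compared with replicate error. They are therefore given without tests or p-values.

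The respiratory chain passes electrons from NADH (complex I) and succinate (complex II) through ubiquinone, complex III and cytochrome c to oxygen at complex IV. The proton gradient this builds across the inner membrane drives ATP synthesis by complex V. Most subunits are encoded in the nucleus and imported, and a small core is encoded by mitochondrial DNA. Embryonic stem cells in culture are known for intense glycolysis alongside active respiration, and several complex IV subunits exist in ubiquitous and tissue-restricted isoforms.

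Values are deposited log2 signals, scaled by the authors to the same trimmed mean, and a signal is 2 to the power of that value. A floor was set at the median of all pooled values (log2 of 6.02, signal 64.7), and values beneath it were set to it. A gene was measured if any of its probe sets exceeded the floor on either array, and it was read from its brightest probe set by mean log2 value. Each ratio is the log2 value with Mll2 shRNA minus that with control shRNA. As a yardstick for a single gene, the spread at its level is the scaled median absolute deviation over the ratios of its 500 neighbours in level. Noise and real differences both enter it, and variation between cultures does not.

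The arrays had medians of 6.01 and 6.02. All 10 embryonic stem cell markers looked up (Pou5f1, Sox2 and Nanog among them) lay above the floor on both arrays, with a summed signal of 95512 with Mll2 shRNA and 101799 with control shRNA. Single markers went both ways: Klf4 was at 0.59, Esrrb at 0.53 and Nanog at 0.47, Sall4 at -0.58, Pou5f1 at -0.44 and Utf1 at -0.41, and 3 of the 10 lay within 0.25 of 0 (SD of 0.45 over genes). Of 10 fibroblast or feeder markers 4 and 5 lay above it, with sums of 1011 and 1019, and Thy1, Twist2, Dcn, Lum and Postn lay below it on both. Of 6 extraembryonic endoderm markers 4 and 2 lay above it, with sums of 593 and 619, and Gata4 and Afp below it on both. The part of these cells in the results was not tested. Mll2 has named both Kmt2d and Kmt2b: Kmt2d had 335 with Mll2 shRNA and 736 with control shRNA (2.20-fold lower), and Kmt2b 852 and 901. In such bulk samples, fewer cells of a type and less RNA per cell cannot be told apart.

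Respiratory chain genes had nearly the same signal on both arrays. Of 91 members 88 were measured, 85 of them with both arrays above the floor, and none was 2-fold higher or 2-fold lower. Over all 11805 measured genes, 1.47% were 2-fold higher or more and 0.983% 2-fold lower or more, and over the 4772 other genes within the 10th to 90th percentile of the members' levels these shares were 0.587% and 0.398%. Against such low shares a count of 0 among 88 genes is near the background and is no result about the members. At 1.5-fold, Cox6b2 was higher (7.4% of all measured genes, 3.1% at the members' level) and Cox7a1 and Ndufaf4 were lower (4.68% and 1.84%).

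The 88 measured members had a median ratio of -0.05, beside 0.03 over all measured genes and 0.01 over the other genes at their level. Below 0 lay 57 members, or 64.8%, against 46.5% of all measured genes and 49.1% of those at the members' level. The latter genes span a broad range and were not matched to the members within it. Relative to the median of the genes nearest to each in level, 51 of the 88 members were lower and the median was -0.02. The sign of the members' median also depended on the scaling of the arrays. That median was -0.01 after quantile normalization or loess. It was 0.06 when the arrays were scaled on 18 bacterial spike-in probe sets. These were lower in the Mll2 shRNA array by a mean of 0.12. That scaling raised the median of all measured genes to 0.14. It shifts every ratio by about the same amount, so it could turn the members' sign but says nothing on their distance from all genes. After quantile normalization or loess, which can change that distance, the median of all measured genes was 0.01, beside -0.01 for the members.

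Member ratios lay in a narrow range, as did those of other lists of housekeeping genes. The members had an SD of 0.19 over genes, against 0.39 over all measured genes, and 0.17 for the 70 members within the 10th to 90th percentile of level against 0.30 for the 4772 others there. A ratio within 0.25 of 0 was found for 75 of the 88, against 55.7% of all measured genes and 66% of those at the members' level. Members and others were not matched in level within that range. The spread at a gene's level fell across it, from 0.27 at Cox6b2 to 0.16 at Atp5c1, so level can enter these contrasts. Beyond 2 spreads of the genes at the same level lay 2 members, Cox6b2 and Ndufaf4, where 7.2% of all measured genes and 8.03% of those at the members' level did. The SD over genes was 0.19 for cytosolic and 0.20 for mitochondrial ribosomal proteins, 0.15 for the citric acid cycle and 0.14 for glycolysis, close to or below that of the respiratory chain. Differences in range were not tested, since members are not replicates of a condition.

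**Figure D1:**
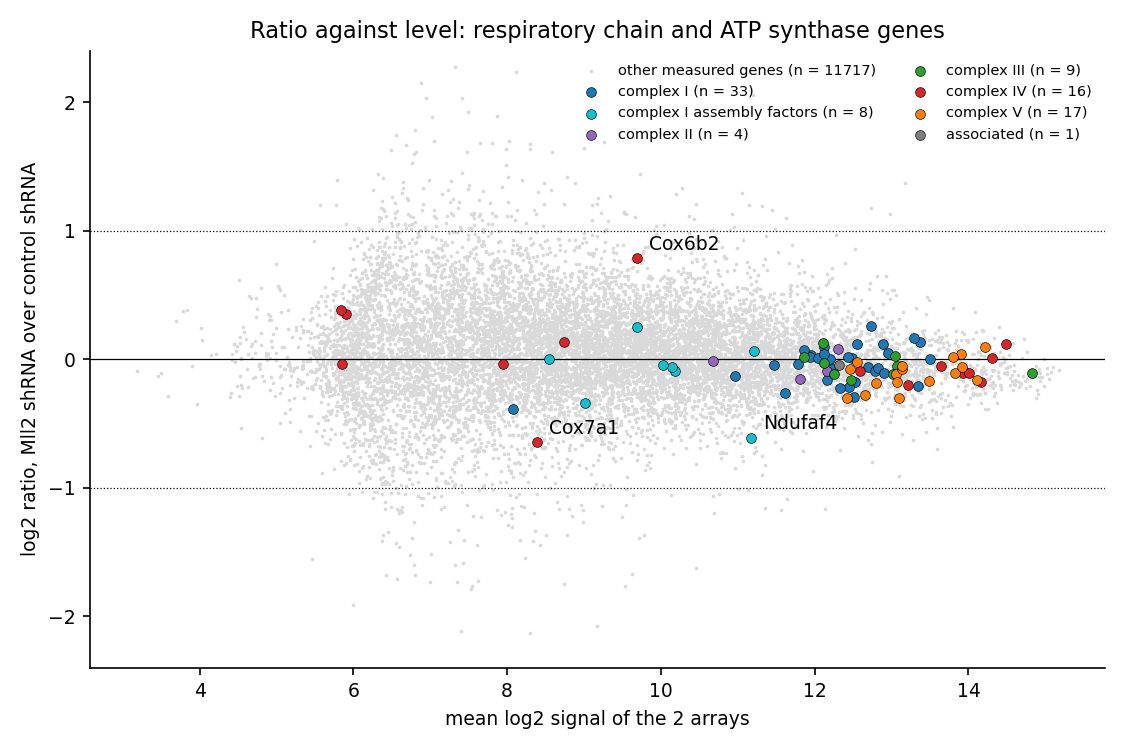
Log2 ratio of the Mll2 shRNA over the control shRNA array against the mean log2 signal of both arrays, for 1 probe set of each measured gene; grey points are the other genes, coloured points the 88 measured members by complex ("associated" is Cox7a2l), and dotted lines mark 2-fold. The members lie between -0.64 (Cox7a1) and 0.78 (Cox6b2), inside the 2-fold lines, and 77 of them have a mean level of at least 10.

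Second probe sets give a rough guide to the error of a member's ratio. For 47 members with 2 or more probe sets that exceeded the floor on each array, the 2 brightest gave ratios that differed with an SD of 0.16, and they had the same sign in 28 (59.6%). Over 4713 genes of the array the SD was 0.37 and the same sign was found in 66.1%. The SD of 0.16 holds the error of both probe sets, of which the second is the dimmer, so it is not the error of a single ratio. With a median absolute ratio of 0.09 and the same sign in 59.6%, the sign of most single members is not settled by these arrays. Among members named below, Ndufs7, Ndufv2, Sdha, Uqcr10, Uqcrb, Cox5a, Cox5b, Cox6a1, Cox8a, Cox7a2l, Atp5c1 and Atp5j2 also had probe sets of both signs. Probe sets of a gene were read on the same arrays and can share sequence, so this SD does not cover variation between cultures.

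Complex I, the NADH dehydrogenase, had 33 of its 34 subunits measured, with a median ratio of -0.04, a range from -0.39 to 0.26, and 18 of 33 below 0. The median turned to 0.01 after quantile normalization or loess and to 0.08 with spike-in scaling. The core subunits, which include those that carry the flavin and the iron-sulfur clusters, were described first. Ndufs1, the largest iron-sulfur subunit, had signals of 4687 with Mll2 shRNA and 4691 with control shRNA. Ndufv1, which binds NADH and the flavin, had 4752 and 5554 (-0.23), while its other probe sets reached 0.09. Ndufv2, its iron-sulfur partner, had 7401 and 7972 (-0.11).

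Of the other core subunits, Ndufs3 had signals of 4316 and 4832 (-0.16) and Ndufs7 of 4512 and 4378 (0.04). Ndufs8 was at -0.30, with 5286 and 6490, and its 6 probe sets averaged -0.14 ± 0.17 (SD) and ran from -0.33 to 0.12. The 6 core subunits had a median of -0.14 with 5 below 0, all within 2 spreads of the genes at their level.

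The 27 measured accessory subunits, which surround and stabilise the core, had a median of 0.00, with 13 below 0. The highest was Ndufa12, with signals of 7428 and 6198 (0.26, spread 0.20), and its 3 probe sets that exceeded the floor on each array averaged 0.14 ± 0.12 (SD). Ndufc2 (10610 and 9440, a ratio of 0.17) and Ndufc1 (11072 and 10088, a ratio of 0.13) came next. Both are small membrane subunits. The probe sets of Ndufc2 agreed on the sign, from 0.06 to 0.17.

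The lowest accessory subunit was Ndufb1, with a single probe set at signals of 236 and 308 (-0.39, spread 0.38). Ndufa5, a subunit of the matrix arm, had 2854 and 3429 (-0.26), and its other probe set gave -0.13. Ndufb7, a subunit of the membrane arm, had 5192 and 6034 (-0.22), with -0.06 in its other probe set. Ndufa7 was at -0.21 in the probe set used and below 0 in all 5 of its probe sets, which averaged -0.20 ± 0.09 (SD). By contrast Ndufa1, a small membrane subunit encoded on the X chromosome, had 11622 and 11608, a ratio of 0.00.

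Probe sets disagreed most in Ndufs4, a subunit of the matrix arm mutated in human Leigh syndrome. Its ratio was -0.05 in the probe set used (signals of 2793 and 2883), but its 4 probe sets ran from -0.66 to 0.70 and averaged 0.07 ± 0.58 (SD). Ndufab1, the mitochondrial acyl carrier protein, had -0.09 in the probe set used, with 6862 and 7289, and a range from -0.31 to 0.40. The lowest Ndufab1 value is a bound, from a probe set below the floor with Mll2 shRNA. For both genes the probe sets at the ends of the range were dim, and no direction can be given. The single Ndufb4 probe set with no other symbol lay below the floor on both arrays. Probe sets that the annotation shares among Ndufb4, Ndufb4b and Ndufb4c were bright on both arrays. Their log2 values lay from 11.68 to 12.19 and their ratios were -0.05 and -0.03. They fall outside the rule, so Ndufb4 itself has no ratio here.

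The Ndufaf assembly factors help to build complex I and are not part of the finished enzyme. All 8 were measured, with a median of -0.05 and 5 below 0. Ndufaf4 had the largest difference, with signals of 1864 and 2846, or 1.53-fold lower (-0.61, spread 0.29), and of its 500 neighbours in level 12 were lower. Its second probe set gave -0.12, the mean of both was -0.36 ± 0.35 (SD), and with spike-in scaling the first was -0.49. The size of this difference thus rests on 1 probe set.

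Ndufaf7, an arginine methyltransferase that acts on a complex I subunit, had 460 and 582 (-0.34, spread 0.33). Ndufaf1 was at -0.09 (1124 and 1196). On the other side were Ndufaf3, with 903 and 760 (0.25, spread 0.27) and Ndufaf8 at 0.06 (2414 and 2309). Ndufaf5 had 373 on both arrays. Ndufaf2 and Ndufaf6 lay at -0.06 and -0.04. Ndufaf4 alone among the 8 lay beyond 2 spreads.

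Complex II, succinate dehydrogenase, is shared with the citric acid cycle and is encoded wholly in the nucleus. Its 4 subunits lay within 0.15 of 0, with a median of -0.05 (0.07 with spike-in scaling and 0.02 when probe sets were averaged). Sdha, the flavoprotein, had signals of 4447 and 4730 (-0.09), and Sdhb, the iron-sulfur subunit, 5216 and 4933 (0.08). Of the membrane anchors, Sdhc had 1626 and 1642 (-0.01) and Sdhd 3421 and 3796 (-0.15). Both probe sets of Sdhd gave ratios below 0, whereas those of Sdhc ran from -0.01 to 0.24.

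Complex III, the cytochrome bc1 complex, had all 9 members measured and the smallest spread of the complexes with more than 4 members, an SD of 0.09 over genes. Its median was -0.05, with 6 of 9 below 0, but 0.01 after quantile normalization or loess and 0.07 with spike-in scaling. Among the subunits that carry redox groups, Cyc1 (cytochrome c1) had signals of 8422 and 8732 (-0.05) and Uqcrfs1, the Rieske iron-sulfur protein, 4706 and 5081 (-0.11). The core proteins Uqcrc1 and Uqcrc2 lay above 0, at 0.13 (4626 and 4229) and 0.03 (8484 and 8338), the latter with -0.09 in its other probe set.

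The small subunits of complex III followed the same narrow range. Uqcrb had 28000 and 30216 (-0.11), Uqcrh, the hinge protein, 7945 and 8608 (-0.12), and Uqcr11 5402 and 6030 (-0.16). Uqcrq was at -0.03 (4425 and 4520) and Uqcr10 at 0.02 (3734 and 3692). All 15 complex III probe sets that exceeded the floor on each array lay within 0.25 of 0.

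Complex V, the ATP synthase, had the lowest median of the complexes as deposited, -0.11, with 14 of 17 subunits below 0. At probe set level 23 of 28 lay below 0, with a range from -0.30 to 0.09. The genes at the same level were also slightly below 0 on these arrays: taken relative to the median of the 500 genes nearest in level, 11 of 17 subunits were lower and the median was -0.03. After quantile normalization its median was -0.04 and that of complex II -0.05, after loess both were -0.04, and with spike-in scaling it was 0.01.

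The catalytic head of the ATP synthase showed small differences. Atp5b, the catalytic beta subunit, had signals of 15517 and 15076 (0.04), and Atp5a1, the alpha subunit, 10838 and 12192 (-0.17), with 0.02 in another probe set. The stalk subunits Atp5c1 (gamma), Atp5d (delta) and Atp5e (epsilon) were at -0.11, -0.11 and -0.08. In the peripheral stalk, Atp5pb (subunit b) was at 0.09 (19648 and 18401), but at -0.09 in its other probe set (8799 and 9369). Atp5o, the subunit that confers oligomycin sensitivity, was at -0.18 (8062 and 9124). Atp5h and Atp5j, also of that stalk, were at -0.06 and -0.07.

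The 3 genes Atp5g1, Atp5g2 and Atp5g3 encode the same mature subunit c, which forms the rotating ring. Their signals were 4932 and 6073 for Atp5g1 (-0.30), 6665 and 7566 for Atp5g2 (-0.18), and 16704 and 18637 for Atp5g3 (-0.16). All 3 were lower with Mll2 shRNA in the probe set used, against spreads from 0.15 to 0.21 at their levels. With spike-in scaling Atp5g1 was at -0.18. A second, dim Atp5g2 probe set gave 0.10.

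Atp5l (subunit g), which takes part in the dimer interface of the enzyme, had 7879 and 9694 (-0.30, spread 0.19), and Atp5md, a small dimer-associated subunit, 5848 and 7103 (-0.28, spread 0.20). Of their 500 neighbours in level, 54 and 52 were lower. Atp5k (subunit e), which binds subunit g, was at -0.05 in the probe set used and at -0.12 ± 0.06 (SD) over its 3 probe sets. Atp5j2 (subunit f) was at 0.02 and Atp5mpl at -0.02. None of the 17 lay beyond 2 spreads.

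**Figure D2:**
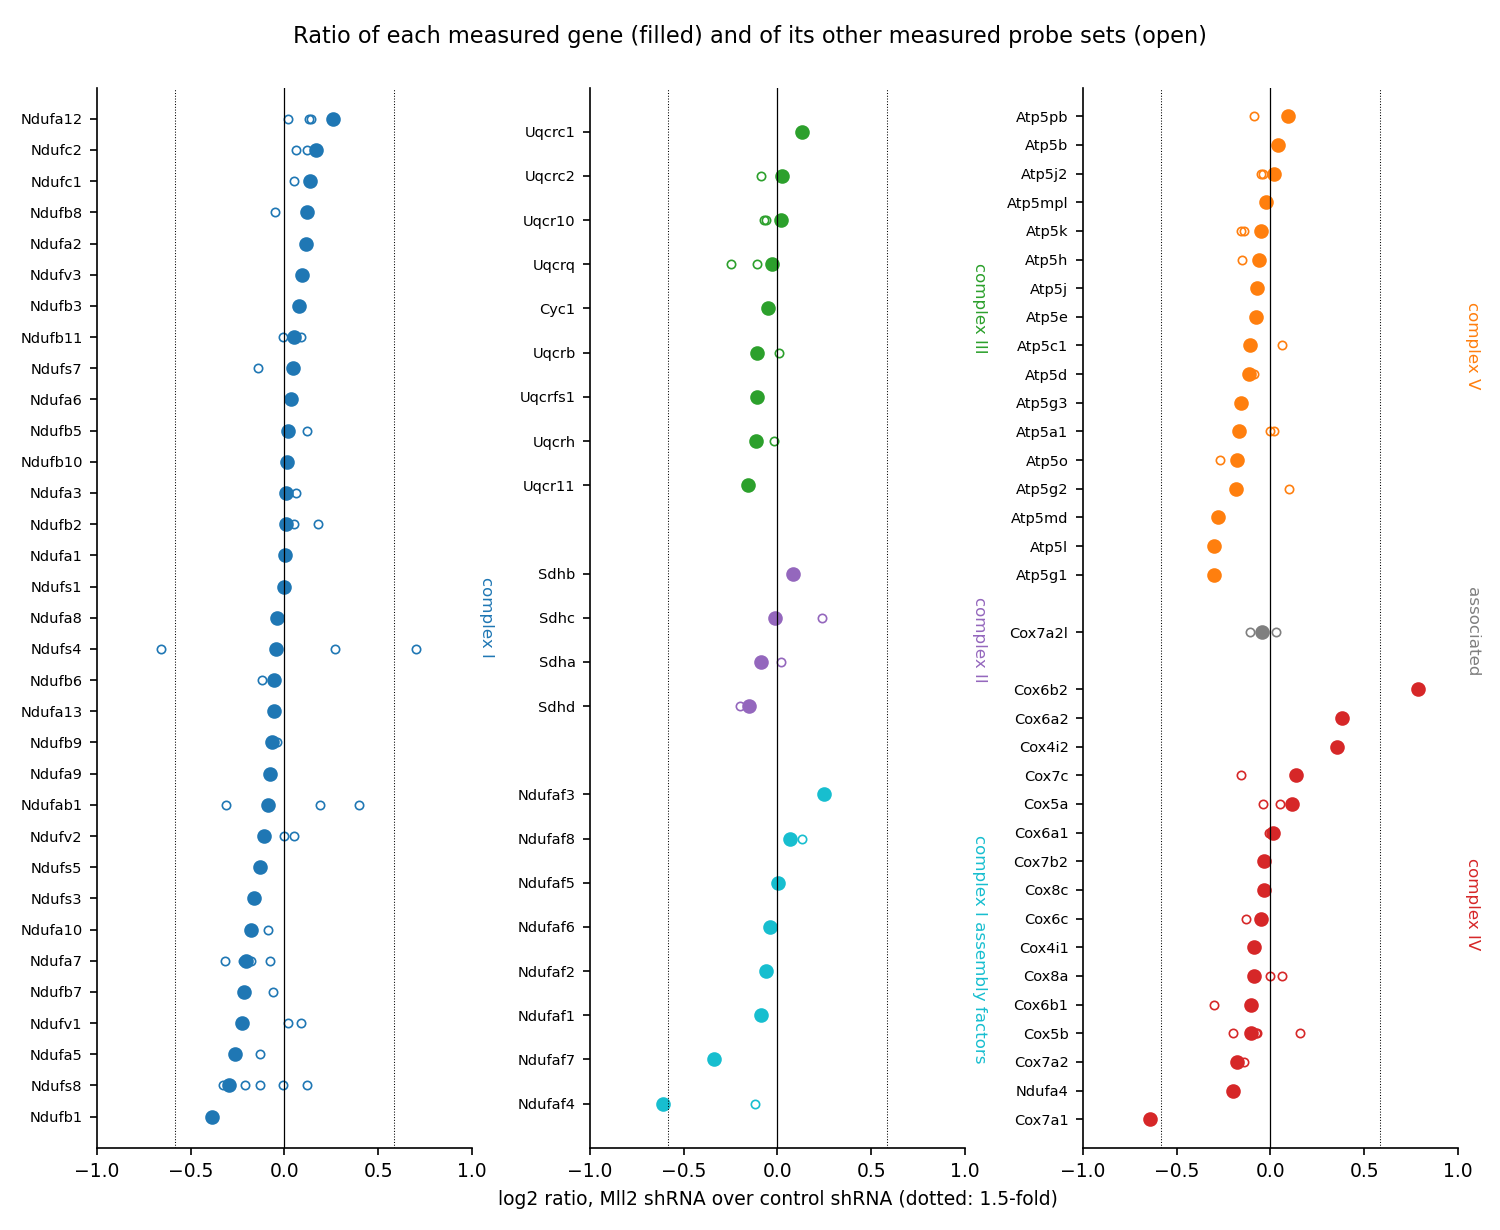
Log2 ratio of each measured member (filled circle, the probe set with the highest mean) and of its other measured probe sets (open circles), ordered by ratio within each complex; dotted lines mark 1.5-fold. Most filled circles lie within 0.25 of 0, Cox6b2 (0.78), Cox7a1 (-0.64) and Ndufaf4 (-0.61) lie outside the dotted lines, and the open circles of Ndufs4 spread from -0.66 to 0.70.

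Complex IV, cytochrome c oxidase, had the widest range of the 5 complexes, from -0.64 to 0.78 (SD of 0.31 over 16 measured subunits), around a median of -0.04. That median was 0.07 with spike-in scaling and -0.09 with the floor at the 70th percentile. The ubiquitous subunits differed little. Cox4i1, the regulatory subunit, had signals of 15230 and 16213 (-0.09), Cox5a 24001 and 22145 (0.12) and Cox5b 15063 and 16182 (-0.10). Cox6c had 12557 and 12998 (-0.05), Cox8a 5983 and 6370 (-0.09), and Ndufa4 8869 and 10185 (-0.20).

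The largest differences in complex IV were in isoforms restricted to certain tissues. Cox6b2, the testis isoform of subunit 6B, had 1083 with Mll2 shRNA and 629 with control shRNA, or 1.72-fold higher (0.78, spread 0.27), and of its 500 neighbours in level 5 were higher. The ubiquitous isoform Cox6b1 had 15813 and 16985 (-0.10), and its second probe set gave -0.30. Cox6b2 stayed above 1.5-fold in each alternative scaling, between 0.74 and 0.90, but it was read from 1 probe set only.

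Cox7a1, the isoform of subunit 7A in heart and skeletal muscle, had 268 and 418, or 1.56-fold lower (-0.64, spread 0.36). Of its 500 neighbours in level 25 were lower, and it lay within 2 spreads. With spike-in scaling it was at -0.53, short of 1.5-fold. Its ubiquitous counterpart Cox7a2 had 17246 and 19519 (-0.18), with -0.14 in its second probe set. As deposited, the isoforms of subunit 7A were thus both below 0, whereas those of subunit 6B lay on opposite sides of it. The genes at the level of Cox6b1 and of Cox7a2 had a median of -0.09, and relative to it Cox6b1 was at -0.01 and Cox7a2 at -0.08. Neither contrast could be tested.

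Other restricted isoforms were at or near the floor. Cox4i2, the lung and hypoxia-responsive isoform of subunit 4, had 82.8 with Mll2 shRNA and 43.3, below the floor, with control shRNA (at least 1.28-fold higher). Cox6a2, the muscle isoform of subunit 6A, had 84.2 and 39.2 (at least 1.30-fold higher), while the ubiquitous Cox6a1 had 20401 and 20208 (0.01). Values so close to the floor are noisy, and these ratios were 0.93 and 1.10 when the floor was lowered.

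Cox8c, the testis isoform of subunit 8, had 244 and 250 (-0.04). Cox7b2, a testis paralogue of subunit 7B, was just above the floor in the control alone (50.4 and 66.4), and Cox8b, the muscle isoform of subunit 8, lay below the floor on both arrays. The testis isoforms Cox6b2 and Cox8c, both above the floor on both arrays, therefore had unlike ratios. Cox7c, a ubiquitous subunit, had 448 and 407 (0.14), with -0.16 in its other probe set. Outside the complexes, Cox7a2l had 5017 and 5171 (-0.04), and Ndufa4l2 lay below the floor on both arrays.

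**Figure D3:**
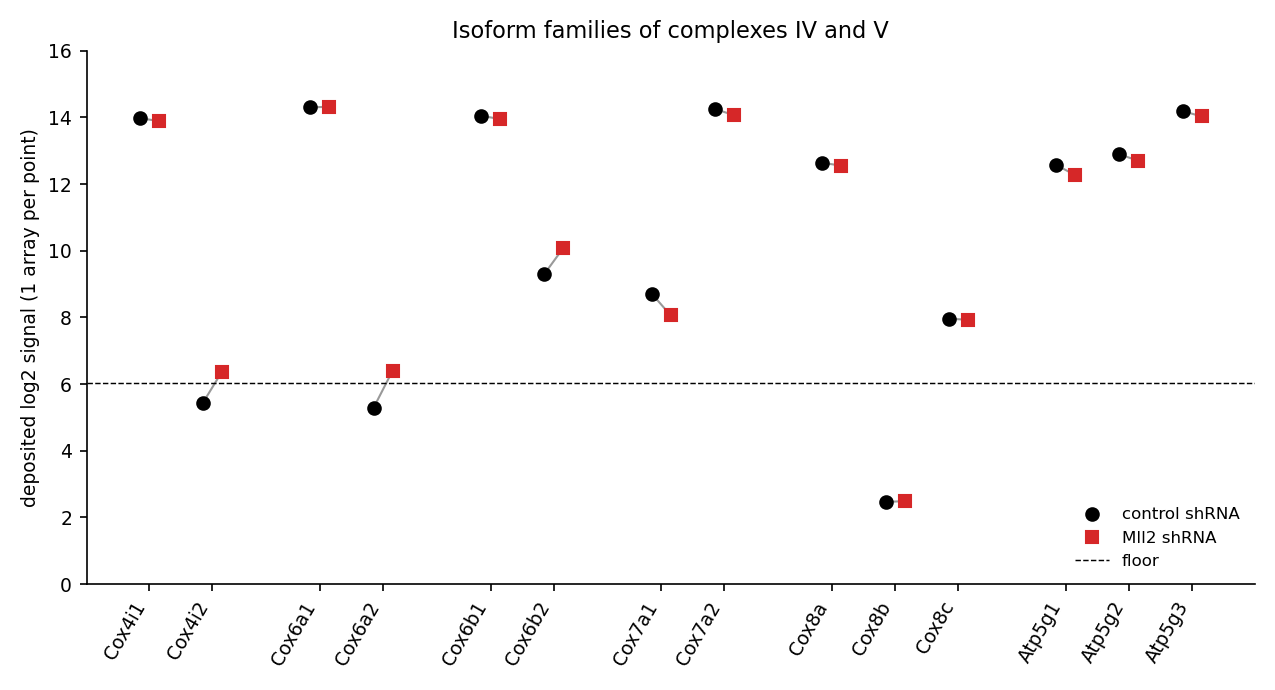
Deposited log2 signal on the control shRNA array (black circles) and on the Mll2 shRNA array (red squares) for isoform families of complexes IV and V, 1 array per point; the dashed line is the floor of 6.02. Cox6b2 is higher (0.78) and Cox7a1 lower (-0.64) on the Mll2 shRNA array. Cox4i2 and Cox6a2 rise from below the floor, by 0.93 and 1.10 in these values without a floor. The ubiquitous Cox isoforms lie from -0.18 (Cox7a2) to 0.01 (Cox6a1), and Atp5g1, Atp5g2 and Atp5g3 at -0.30, -0.18 and -0.16. Probe sets hybridise unequally, so heights are not compared between genes.

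The promoters of the members past 1.5-fold and of the ubiquitous isoforms Cox6b1 and Cox7a2 are shown to let the restricted and the ubiquitous genes be set side by side. These are the 250 bases before the RefSeq start in GRCm38.p6, 5' to 3' on the gene's strand. Capitals mark matches, on either strand, to NRF1 (GCGC and TGCGC with any 1 base between), GABP of the ETS family (CCGGAAG), YY1 (AANATGGCG), the TATA box (TATAAA) or the CCAAT box (CCAAT), none of which overlap each other here.
Cox6b2, chr7:4753095-4753344, minus strand: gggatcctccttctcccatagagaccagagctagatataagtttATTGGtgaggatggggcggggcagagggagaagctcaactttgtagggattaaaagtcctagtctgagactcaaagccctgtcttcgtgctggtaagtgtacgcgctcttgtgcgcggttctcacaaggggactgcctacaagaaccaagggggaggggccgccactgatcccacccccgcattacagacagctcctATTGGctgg
Cox6b1, chr7:30626115-30626364, minus strand: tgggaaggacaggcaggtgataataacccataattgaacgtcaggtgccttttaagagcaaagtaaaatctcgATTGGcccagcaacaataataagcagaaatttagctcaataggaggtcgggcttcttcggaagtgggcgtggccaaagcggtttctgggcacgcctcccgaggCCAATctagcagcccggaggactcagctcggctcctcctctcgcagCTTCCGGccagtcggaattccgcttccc
Cox7a1, chr7:30183921-30184170, plus strand: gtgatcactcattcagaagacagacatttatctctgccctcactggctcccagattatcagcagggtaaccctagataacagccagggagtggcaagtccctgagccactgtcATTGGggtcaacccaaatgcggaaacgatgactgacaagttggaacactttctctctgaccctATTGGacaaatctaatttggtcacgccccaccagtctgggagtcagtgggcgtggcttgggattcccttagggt
Cox7a2, chr9:79759854-79760103, minus strand: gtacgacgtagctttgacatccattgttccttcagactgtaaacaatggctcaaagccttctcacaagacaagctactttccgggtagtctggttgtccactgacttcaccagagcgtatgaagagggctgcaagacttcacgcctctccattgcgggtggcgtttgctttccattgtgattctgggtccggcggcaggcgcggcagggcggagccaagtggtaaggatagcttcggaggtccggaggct
Ndufaf4, chr4:24897833-24898082, plus strand: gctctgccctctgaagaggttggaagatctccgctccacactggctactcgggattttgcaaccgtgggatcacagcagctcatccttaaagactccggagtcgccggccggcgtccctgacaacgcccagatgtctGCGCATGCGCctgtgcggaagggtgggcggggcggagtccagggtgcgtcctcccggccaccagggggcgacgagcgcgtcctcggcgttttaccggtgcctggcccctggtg

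In these windows CG dinucleotides numbered 8 in Cox6b2 against 14 in Cox6b1, and 4 in Cox7a1 against 14 in Cox7a2. Ndufaf4 had 23. Cox6b1 held an ETS-type match 28 bases before its start, and Ndufaf4 held an NRF1 match, which reads the same on both strands, 113 bases before. Cox6b2 and Cox7a1 held CCAAT boxes but none of the other letters searched, and Cox7a2 held none of them.

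NRF1, GABP and YY1 are transcription factors known for acting on respiratory chain promoters. In windows from 250 bases before to 50 after the start, which the RefSeq table gave for 74 of the 91 members (79 promoters), the NRF1 motif was found in 22.8% of member promoters, against 9.89% of 12278 promoters of measured genes and 4.6% of all 32851 promoters. For the GABP motif the shares were 24.1%, 17% and 8.86%, and for YY1 12.7%, 4.85% and 2.38%. TATA boxes were found in 11.4%, 7.2% and 13.6%, and CCAAT boxes in 41.8%, 37.6% and 37.4%. A match is a description of the sequence and not a binding site.

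The ratios of members with and without these motifs overlapped. The 16 measured members with an NRF1 motif had a median of -0.10 and the 56 without one -0.06. With a GABP motif the median was -0.09 (19 genes, 16 of them below 0) and without it -0.04 (53 genes, 29 below 0). With a YY1 motif it was 0.03 (10 genes) and without it -0.09 (62 genes), with a TATA box -0.21 (7 genes) and without it -0.06 (65 genes), and with a CCAAT box -0.06 (31 genes) and without it -0.09 (41 genes). Motif groups overlap, and no difference between them was tested.

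The levels of the regulators themselves were looked up. Of 13 transcriptional regulators of mitochondrial genes 12 were measured, with a median of -0.08 (0.04 with spike-in scaling) and 7 below 0. The coactivator gene Ppargc1b had 62.3, below the floor, with Mll2 shRNA and 196 with control shRNA, or at least 3.03-fold lower, in its single probe set. It alone of the 12 reached 2-fold, where 0.983% of all measured genes were 2-fold lower or more. The spread at its level was 0.44, and values so close to the floor are noisy. All 5 probe sets of Ppargc1a, the best-known relative of Ppargc1b, lay below the floor on both arrays. Pprc1, a related coactivator, had 2442 and 3410 (-0.48).

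Among the DNA-binding factors, Gabpa had 4861 and 4851 (0.00) and Yy1 8157 and 8080 (0.01). Nrf1 had 964 and 1232 (-0.35), but its 4 probe sets lay anywhere from -0.66 to 0.76. Esrra, an orphan nuclear receptor, was at 0.11, and Tfam, which packages and transcribes mitochondrial DNA, at -0.11.

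Other genes of the pathway were described by function. Of 38 assembly factors outside the rule 34 were measured, with a median of 0.02, 17 below 0 and none at 2-fold. At 1.5-fold, Atpaf2, which helps to assemble the head of the ATP synthase, was lower, with 214 and 371 (1.74-fold, -0.80, spread 0.38). The copper chaperone gene Sco1 was at 0.54 and its paralogue Sco2 at -0.40, against spreads of 0.41 and 0.37. Surf1, needed to assemble complex IV, had 1905 and 1495 (0.35).

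Of 11 electron carriers and coupling proteins 10 were measured, with a median of -0.18 (-0.06 with spike-in scaling) and 6 below 0. Cycs, cytochrome c, had 18744 and 21618 (-0.21), the phosphate carrier Slc25a3 16243 and 20570 (-0.34), and the ADP/ATP carriers Slc25a4 and Slc25a5 were both at -0.18 in the probe set used. The probe sets of Slc25a4 above the floor lay from -0.19 to -0.14, and those of Slc25a5 from -0.69 to 0.06. Gpd2, the mitochondrial glycerol phosphate dehydrogenase that feeds electrons to ubiquinone, was at -0.52 (2221 and 3188), with -0.38 and -0.53 in its other probe sets above the floor. Etfa, Etfb and Etfdh, which bring in electrons from fatty acid oxidation, were at 0.24, 0.13 and 0.21. Genes of coenzyme Q synthesis had a median of 0.03 over 9 measured, with 3 below 0.

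A single probe set read a mitochondrially encoded subunit, ND5 of complex I, and was looked up after its values were seen. Its signals were 7794 and 9967 (-0.35). Of the measured nuclear subunits of complex I only the dim Ndufb1 was lower (-0.39), and the next was Ndufs8 at -0.30.

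As deposited, the respiratory chain members had a median nearer to 0 than ribosomal protein or glycolysis genes. The 76 mitochondrial ribosomal protein genes had a median of -0.13, with 53 below 0, and the 46 measured cytosolic ribosomal protein genes -0.14, with 43 below 0. After quantile normalization the medians were -0.13 and -0.02, so that the cytosolic ribosomal proteins no longer differed from the respiratory chain median of -0.01 by more than 0.01. With spike-in scaling they were -0.01 and -0.02, beside 0.06 for the respiratory chain. The 12 measured citric acid cycle genes had a median of 0.04, with 5 below 0. Of 17 listed glycolysis genes 13 were measured, and all 13 were below 0, with a median of -0.29, where 46.5% of all measured genes were below 0. The list was chosen with earlier results of these data known. Pgk1, phosphoglycerate kinase, had 17143 and 22441 (-0.39), with -0.38 and 0.16 in its other probe sets. A dimmer probe set of Aldoa was at 0.02. Glycolysis kept a median below 0 in all 5 scalings, from -0.29 to -0.17. With 1 array per group none of these differences between lists could be tested.

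**Figure D4:**
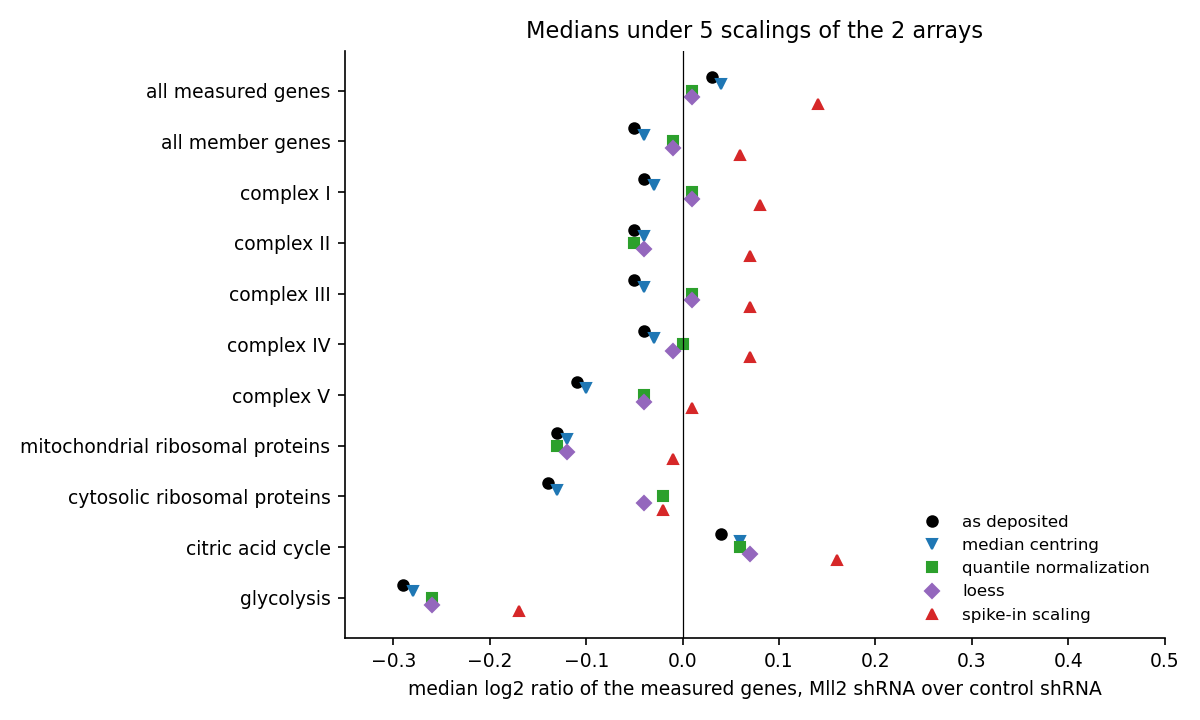
Median log2 ratio, Mll2 shRNA over control shRNA, of the measured genes of each complex and of 4 other lists under 5 scalings of the 2 arrays, beside the median of all measured genes. Each complex moves from below 0 as deposited (-0.11 to -0.04) to above it with spike-in scaling (0.01 to 0.08), the median of all measured genes moves from 0.03 to 0.14, and glycolysis stays below 0.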

How the data were processed

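The 2 arrays were deposited as a table of 45101 probe sets in log2 units. The authors used MAS5, per the submitters' processing notes; its version and any later step were not stated there. As a check, signals recomputed from the deposited log2 values gave a trimmed mean (2% off each end) of 500.0 for each array. After 64 control probe sets were set aside, 34945 of 45037 had 1 symbol in the platform annotation, 932 several and 9160 none; 34741 were matched by gene number to RefSeq (GRCm38.p6), and coordinates are printed only for RefSeq promoters. MAS5 reads each probe set alone and is noisy for dim ones. The number of arrays limits the precision.

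Ratios, floor, representative probe sets and spreads (1.4826 times the median absolute deviation) were computed as given above. The step from probe sets to gene ratios was tested on the control array with added noise and shifts larger than any member's ratio. The spreads, and differences as small as those of the members, were not part of that test. Genes were named by these rules: all subunits of complexes II and III, the core of complex I, the 3 highest and lowest and the brightest of complexes I (core and accessory together), IV and V and of the Ndufaf genes, isoform families, members past 1.5-fold, and members with probe sets of opposite sign over 0.37 apart. Other named members complete the account. Members and lists were chosen with earlier results of these data known; the level range, motifs and ND5 were added afterwards. Alternatives were 4 scalings, 3 floors, a pseudocount, averaged probe sets, no suffixed probe sets, shared probe sets and 1.5-fold. Python 3.11.15, numpy 2.4.6, pandas 2.3.3, scipy 1.17.1, matplotlib 3.10.9 and R 4.3.3 with limma 3.58.1 (loess, quantile) were used.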

Additional observations from a re-analysis of the deposited data

How the results depend on the processing

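With spike-in scaling the median ratio of all members turned from -0.05 to 0.06, and those of complexes I to V to 0.08, 0.07, 0.07, 0.07 and 0.01; 23 members were then below 0 in place of 57. After quantile normalization and after loess, complexes I and III turned to 0.01 each, and complex II turned to 0.02 when probe sets were averaged. The count at least 2-fold higher went from 0 to 1 with the floor at the 30th percentile (Cox6a2) and to 2 with no floor, and at 1.5-fold there was 1 higher and 2 lower. Without a floor the values come from dim probe sets. Of 101 alternative values of the medians and counts, 85 did not turn to the opposite sign, or kept a count within 1.5 times. These include medians that became 0.00, for complex IV after quantile normalization and complex I with averaged probe sets. They also include the 2-fold counts that stayed at 0, which are no result about the members. Among single members, Cox7a1 (-0.54 with a pseudocount) and Ndufaf4 (-0.36 as the mean of its probe sets) fell short of 1.5-fold, and Cox6b2 did not in any alternative run. Beyond the alternatives' own construction, the cause was not tested. No paired analysis was possible because each group had 1 array. Low signal over background limits Cox4i2, Cox6a2, Cox7b2, Cox8b, Ndufa4l2 and the single-symbol probe set of Ndufb4.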

Other observations

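Probe sets that the annotation gives to several genes, at least 1 of them meeting the rule, were not used for the members. There were 10, of which 7 lay above the floor on both arrays, and the ratios of all 10 lay between -0.10 and 0.21. Counting them as members gave 94 measured genes, of which 60 lay below 0, with a median of -0.05.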
